A study of Mus musculus with 6 samples.

Results

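The genes described here are Ppara, Ppargc1a, Fgf21, Angptl4, Pdk4, Vnn1, Bdh1 and Acat1, 8 of the 40803 mouse genes in the count table, chosen by name as the receptor PPAR alpha, its coactivator, fasting hormones and enzymes, and enzymes of ketone body metabolism. The liver RNA of 6 C57BL6 mice was sequenced, with 3 mice in the rAAV8-Scramble group and 3 in the rAAV8-Hnf1aos1 group, and the comparison asks how lowering the lncRNA Hnf1aos1 changes these genes in normally fed animals. All 6 mice carried a recombinant adeno-associated virus of serotype 8, which enters hepatocytes and here expressed a short hairpin RNA from the U6 promoter together with EGFP. The hairpin was a scrambled sequence in one group and was directed against Hnf1aos1 in the other. Per the study's methods the animals were males of about 6 weeks when the virus was injected into the tail vein, and the livers were taken 4 weeks later. Whole liver was used, so RNA of other cell types was measured with that of hepatocytes.

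PPAR alpha is a nuclear receptor that pairs with RXR and switches on fatty acid oxidation and ketogenesis in the liver during fasting. PGC-1 alpha, encoded by Ppargc1a, is a coactivator induced by fasting and glucagon signals. FGF21 and ANGPTL4 are secreted proteins, PDK4 and vanin-1 are enzymes, and the genes of all of them are textbook targets of the receptor. ACAT1 makes acetoacetyl-CoA, which feeds ketone body synthesis, and BDH1 converts acetoacetate to beta-hydroxybutyrate.

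The totals of the mouse genes ran from 14704746 to 16532510 counts in the rAAV8-Scramble and from 18021614 to 19462398 in the rAAV8-Hnf1aos1 libraries, without overlap. ERCC spike-in RNAs took 1.38% to 1.52% of the counts in the rAAV8-Scramble and 1.18% to 1.24% in the rAAV8-Hnf1aos1 libraries. Counts of single genes are given as normalized counts, that is, counts divided by the relative library size that edgeR's TMM method gives. edgeR's quasi-likelihood test was fitted to all 16327 genes that passed a filter on low counts, a gene was called at a Benjamini-Hochberg adjusted p under 0.05, and all 8 genes passed the filter. Hnf1aos1 itself had 512, 491 and 620.3 normalized counts in rAAV8-Scramble replicates 1 to 3, and 278, 258 and 433 in rAAV8-Hnf1aos1 replicates 1 to 3. The groups did not overlap, with a log2 fold change of −0.74 (SE 0.195, edgeR adjusted p = 0.0625), and rAAV8-Hnf1aos1 replicate 3 kept the most; without it the value was −1.01 and the gene was called (adjusted p = 0.000261). The 8 hepatocyte markers summed to between 81448 and 96321 TPM (reads per gene length, scaled to a fixed total per library) in every library. Of the 8 macrophage markers 2 were called higher, and their summed level was 143 to 177 TPM in the rAAV8-Scramble libraries and 177 to 229 TPM in the rAAV8-Hnf1aos1 libraries.

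Pdk4 fell to 30.6% of its scramble level and was the called gene of the 8, and none was called higher (0 also by DESeq2 and limma's voom). Of all genes tested 6.32% were called, with 3.23% lower and 3.09% higher. All 8 log2 fold changes lay below 0, as did those of 50.1% of all genes tested. Their median was −0.65, beside −0.0004 for all genes tested. The 8 values come from the same 6 libraries, and all 8 genes were highest among the scramble libraries in replicate 2. The 8 signs are therefore not separate observations. Unadjusted p-values were under 0.05 for 5 of the 8, where 23.4% of all genes had such a value. That number of the 8 was 1 without rAAV8-Scramble replicate 2, without rAAV8-Hnf1aos1 replicate 1, and with library sizes from the spike-ins. It was 3 without rAAV8-Scramble replicate 3 and 5 in each other fit that left out 1 library. DESeq2 and limma's voom gave 4, library totals 6 and a block for the replicate number 7. In Ppargc1a, Angptl4, Pdk4 and Bdh1, 4 of the 8, every rAAV8-Hnf1aos1 library lay below every rAAV8-Scramble library, which held for 13.7% of all genes tested. The number called lower was 1 of 8 in 5 of the 6 fits that left out 1 library each and 3 of 8 without rAAV8-Hnf1aos1 replicate 3. The 8 genes were chosen with earlier results of these data known, so these shares describe them and do not test an excess.

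**Figure D1:**
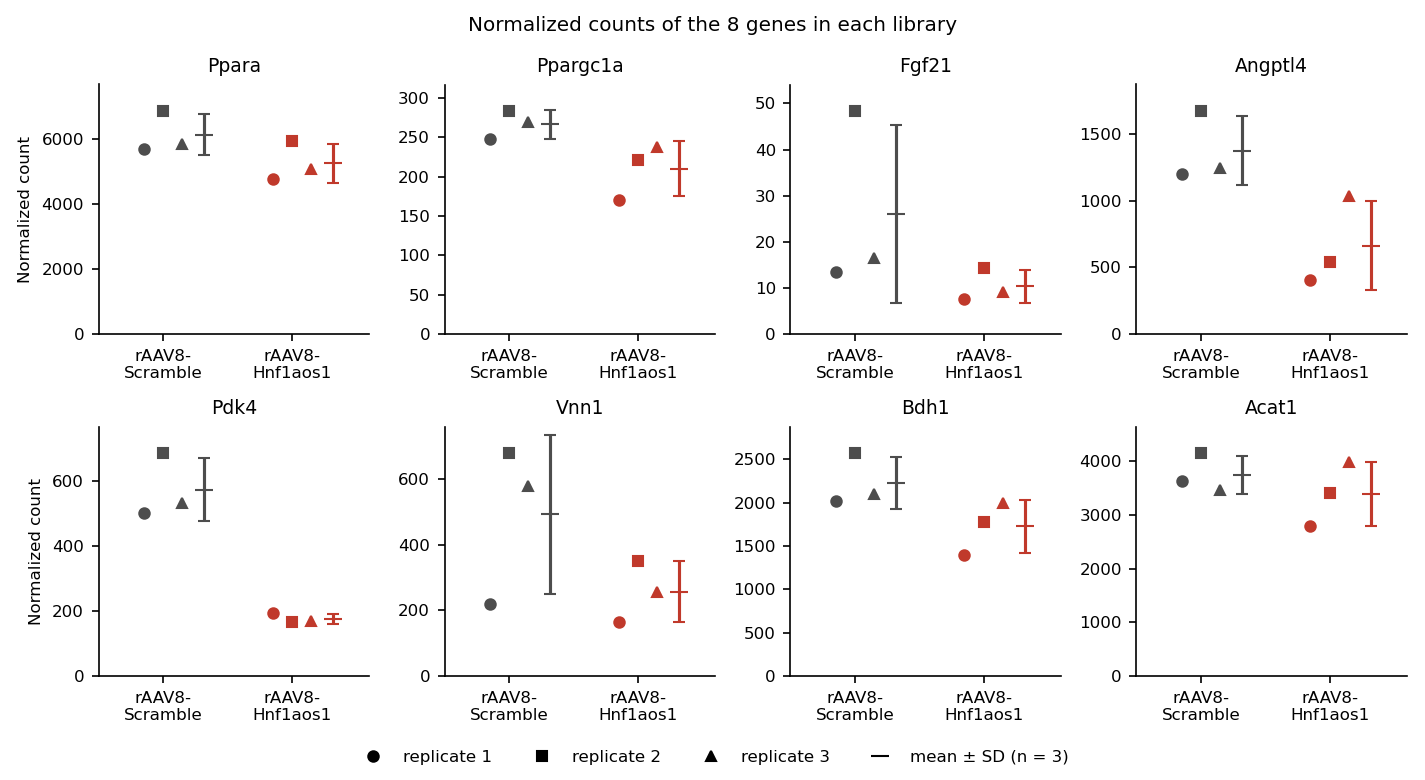
Normalized counts (y axis, from 0) of the 8 genes in the 3 rAAV8-Scramble and 3 rAAV8-Hnf1aos1 libraries, 1 panel per gene, with the mean ± SD (n = 3) beside the points of each group. The 3 knockdown libraries of Pdk4 lie between 165 and 193, far below the lowest scramble library at 502, while the points of Acat1, Fgf21, Ppara and Vnn1 overlap between the groups.

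Per length, the 8 genes covered a wide range of levels in the rAAV8-Scramble group. On the deposited TPM scale Acat1 was highest at 144 ± 10.6 TPM (SD, n = 3), followed by Angptl4 at 93.8 ± 16.0, Bdh1 at 79.5 ± 9.41, Ppara at 76.4 ± 6.78, Vnn1 at 26.6 ± 13.0, Pdk4 at 21.6 ± 3.36, Fgf21 at 3.55 ± 2.57 and Ppargc1a at 2.65 ± 0.190 TPM. Neighbours in this order overlapped between Angptl4 and Bdh1, Bdh1 and Ppara, Vnn1 and Pdk4, and Fgf21 and Ppargc1a. The other neighbours were separate, namely Acat1 from Angptl4, Ppara from Vnn1 and Pdk4 from Fgf21. In the rAAV8-Hnf1aos1 group Pdk4 was at 6.29 ± 0.756 TPM, and the lowest were again Ppargc1a at 1.97 ± 0.276 and Fgf21 at 1.34 ± 0.420 TPM.

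Within the groups, all 8 genes were highest among the scramble libraries in replicate 2. In the rAAV8-Hnf1aos1 group 7 of the 8 were lowest in replicate 1, the exception being Pdk4. There 4 of the 8 (Ppargc1a, Angptl4, Bdh1 and Acat1) were highest in replicate 3, which had the most Hnf1aos1 of that group. By contrast, Hnf1aos1 itself was lowest in replicate 2 of each group (491 normalized counts in scramble, 258 in knockdown). A relation between its level and that of the 8 genes was not tested.

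Ppara encodes the receptor and lies on chromosome 15 of GRCm38 (85734983 to 85802819, + strand). Its normalized counts were 5678, 6839 and 5843 in rAAV8-Scramble replicates 1 to 3, and 4749, 5914 and 5080.2 in rAAV8-Hnf1aos1 replicates 1 to 3. Knockdown replicate 2 lay above 2 of the scramble libraries, so the groups overlapped. The means were 6120.2 ± 628 and 5248 ± 600.0 (SD, n = 3), a log2 fold change of −0.22 with a 95% interval from −0.47 to 0.03 (adjusted p = 0.269, edgeR). The level of the receptor's own transcript was not shown to differ, and the interval allows a decrease of up to 0.47 on the log2 scale. Scaled to the spike-in RNAs, the value was −0.02.

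Among the 17 partners and co-regulators of PPAR receptors that were listed, 0 were called by edgeR's test in either direction, 3 had an unadjusted p under 0.05, and the median log2 fold change was −0.11. DESeq2 called 1 of them higher and limma's voom 0. The lowest p belonged to Nrip1, a corepressor of nuclear receptors, with a log2 fold change of −0.34 (SE 0.0964, edgeR adjusted p = 0.0602). The other receptors of the family also gave no call. Ppard, the broadly expressed member, had a log2 fold change of −0.30 (adjusted p = 0.494), and Pparg, the receptor of adipocyte differentiation, −0.20 (adjusted p = 0.586).

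Ppargc1a lies on chromosome 5 (51454250 to 51567726, − strand). Its normalized counts were 247, 283 and 269 in the rAAV8-Scramble and 171, 221 and 238 in the rAAV8-Hnf1aos1 libraries, replicates 1 to 3. The highest knockdown library stayed just under the lowest scramble library. The means of 267 ± 18.1 and 210.1 ± 35.1 (SD, n = 3) gave a log2 fold change of −0.34 (95% interval −0.65 to −0.04), which was not called (adjusted p = 0.165, edgeR). The counts do not separate the transcripts from the gene's alternative promoters. Its relatives, which are coactivators of the same type, were not called either, with −0.17 for Ppargc1b (adjusted p = 0.559) and 0.37 for Pprc1 (adjusted p = 0.130) on the log2 scale.

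Of the 13 genes linked to PGC-1 alpha, which include gluconeogenic enzymes and regulators of mitochondria, edgeR, DESeq2 and limma's voom each called 0, and 0 had an unadjusted p under 0.05 in edgeR's test. Their median log2 fold change was −0.08. The lowest p was that of Cycs, cytochrome c, at 0.21 on the log2 scale (adjusted p = 0.251, edgeR).

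Promoter sequences from RefSeq were matched for 5 of the 8 genes, Ppara, Ppargc1a, Fgf21, Pdk4 and Bdh1. That of Ppara lay inside the annotated gene and left no bases to search. The 3 shown in this text belong to Pdk4, the gene that passed the test, and to Ppargc1a and Fgf21, whose windows hold letters of elements that respond to fasting and stress signals. Each is written 5′ to 3′ on the strand of the gene, from GRCm38.p6, in lower case with matches in capitals, and stops before the annotated gene. The letters searched on both strands were the direct repeat bound by PPAR-RXR pairs (AGGNCA and a second AGGNCA after 1 free base), the half-site of the cAMP response element (TGACG), a C/EBP-ATF response element (TGATGCAA), the TATA box (TATAAA) and the CCAAT box. In the 250 bases before the start, 0.338%, 17.8%, 0.791%, 12.4% and 33.8% of all 32851 RefSeq promoters held them, in that order. No match overlapped another in the 3 windows. The Bdh1 window, of 233 bases and not shown, held none of the letters searched. The Ppargc1a window (chr5:51567727-51567975, − strand) held 1 half-site of the cAMP response element, on the reverse strand.
Ppargc1a: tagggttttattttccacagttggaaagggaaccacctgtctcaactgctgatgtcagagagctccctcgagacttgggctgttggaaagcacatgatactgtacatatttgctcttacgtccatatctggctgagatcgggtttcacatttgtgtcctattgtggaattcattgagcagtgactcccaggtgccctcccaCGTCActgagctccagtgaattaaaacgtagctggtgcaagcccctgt

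Fgf21, the gene of a hormone that the liver releases on fasting, lies on chromosome 7 (45613886 to 45615490, − strand) and was the most weakly counted of the 8, with 8 to 44 raw counts per library. Its normalized counts were 13.3, 48.3 and 16.5 in the rAAV8-Scramble and 7.63, 14.3 and 9.06 in the rAAV8-Hnf1aos1 libraries, replicates 1 to 3. Scramble replicate 2 stood well above the other 5, and knockdown replicate 2 lay above scramble replicate 1, so the groups overlapped. The log2 fold change was −1.32 with a 95% interval from −2.48 to −0.16 (adjusted p = 0.159, edgeR). Without scramble replicate 2 it was −0.53 (adjusted p = 0.551), so the size of this difference rested on that library. The fit without a filter on low counts, in which more genes were tested, called it at −1.33 (adjusted p = 0.0350).

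The window before the Fgf21 gene (chr7:45615491-45615740, − strand) held a C/EBP-ATF response element and a half-site of the cAMP response element, both on the reverse strand, and a TATA box 22 bases before the annotated start.
Fgf21: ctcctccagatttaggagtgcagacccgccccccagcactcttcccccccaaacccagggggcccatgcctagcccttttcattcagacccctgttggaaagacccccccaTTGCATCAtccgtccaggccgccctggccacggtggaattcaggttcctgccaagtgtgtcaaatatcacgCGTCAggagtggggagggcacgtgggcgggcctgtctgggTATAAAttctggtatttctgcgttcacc

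Angptl4 encodes a secreted inhibitor of lipoprotein lipase and lies on chromosome 17 (33773750 to 33781830, − strand). Its normalized counts were 1203, 1671 and 1244 in the rAAV8-Scramble libraries, and 404, 542 and 1038 in the rAAV8-Hnf1aos1 libraries, replicates 1 to 3. The groups did not overlap, but knockdown replicate 3 was nearer to the scramble libraries than to the other knockdown libraries. The means were 1373 ± 259 and 661 ± 333 (SD, n = 3), and the log2 fold change of −1.05 (SE 0.401, 95% interval −2.10 to −0.01) was not called (adjusted p = 0.211, edgeR). Without knockdown replicate 3 it was −1.53 and the gene was called (edgeR adjusted p = 0.00081). Of the 6 fits that left out 1 library, this 1 called Angptl4, and the 6 values ran from −1.53 to −0.80. Of 10 other alternatives, 0 called it (−1.23 to −0.85). Adipocytes also express Angptl4, and the 6 adipocyte markers summed to at most 32.8 TPM in the scramble and 13.6 to 19.2 TPM in the knockdown libraries, without overlap, with Cfd called lower (log2 fold change −1.16, adjusted p = 0.0411) among the 3 that were tested, and leptin (Lep) at under 1 TPM in every library. The part of adipocyte RNA in this difference was not tested, and in bulk tissue fewer cells of a type and less RNA per cell cannot be told apart.

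The receptors and relatives of both hormones gave 1 call in each direction among 13 genes tested. By comparison, 3.23% of all genes tested were called lower and 3.09% higher. The median log2 fold change of the 13 was −0.11. Klb, the co-receptor that FGF21 needs to signal, had 922, 1053 and 866 normalized counts in rAAV8-Scramble and 545, 573 and 795 in rAAV8-Hnf1aos1 replicates 1 to 3, and fell by 0.57 on the log2 scale (adjusted p = 0.0450, edgeR). Of the 6 fits that each left out 1 library, the one without knockdown replicate 3 called it (−0.76), and those without scramble replicates 1 to 3 or knockdown replicates 1 and 2 did not (−0.64 to −0.48, adjusted p of up to 0.151). The spike-in scaling did not call it either (−0.37, adjusted p = 0.127). Lpl, the lipase that ANGPTL4 inhibits, rose from 364, 357 and 329 to 517, 549 and 451.0 normalized counts, a log2 fold change of 0.53 (adjusted p = 0.0172, edgeR). It lost its call when scramble replicate 2 (0.54, adjusted p = 0.0537) or 3 (0.48, adjusted p = 0.118) or knockdown replicate 2 (0.47, adjusted p = 0.0733) was left out. The 8 macrophage markers had a median log2 fold change of 0.43, with 2 called higher and 0 below 0. The part of other cell types in the rise of Lpl was not tested. The relatives Angptl6 and Angptl8 were not called, at −0.22 for Angptl6 (adjusted p = 0.548) and −0.57 for Angptl8 (adjusted p = 0.319) on the log2 scale.

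Pdk4 encodes a kinase that switches off the pyruvate dehydrogenase complex and so spares glucose on fasting, and lies on chromosome 6 (5483351 to 5496309, − strand). It had 502, 685 and 533 normalized counts in rAAV8-Scramble replicates 1 to 3, and 193, 165 and 168 in rAAV8-Hnf1aos1 replicates 1 to 3. Every scramble library lay far above the highest knockdown library, and the knockdown libraries lay close together. The means of 573 ± 97.9 and 175 ± 14.9 (SD, n = 3) gave a log2 fold change of −1.71 (SE 0.136, 95% interval −2.01 to −1.41), with an adjusted p of 0.000209 from edgeR's test. By its p-value the gene ranked 4 of 16327. Among the fits that left out 1 library the value lay between −1.79 and −1.56, and Pdk4 was called in 6 of 6. It was also called under the 10 other alternatives, which gave −1.78 to −1.51.

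**Figure D2:**
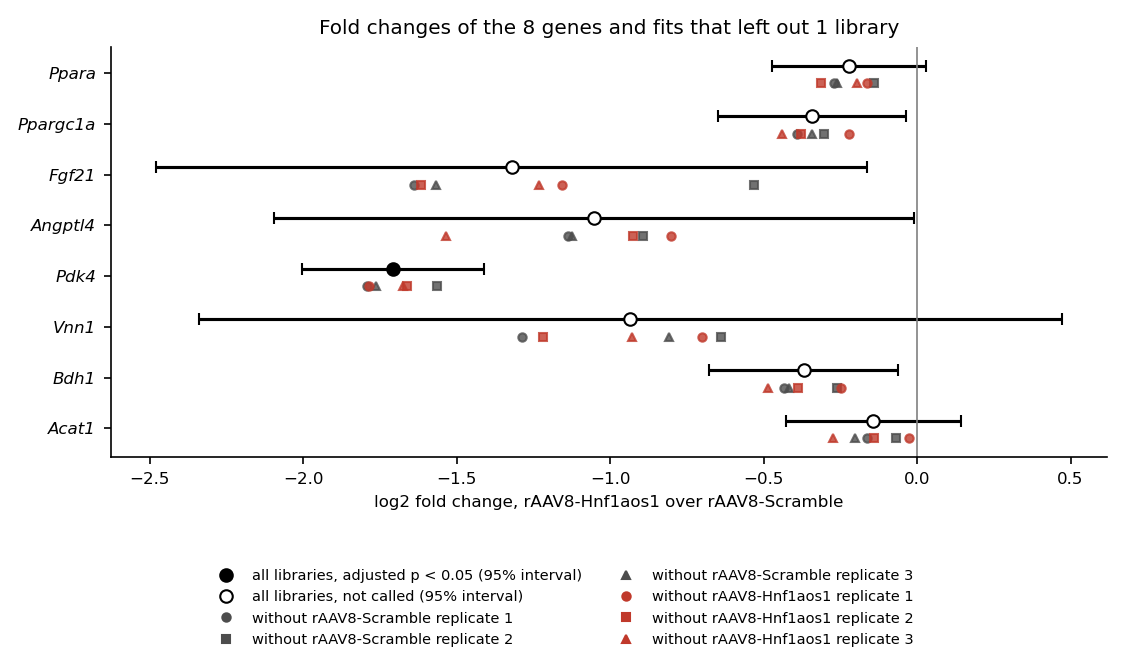
Log2 fold change (x axis, rAAV8-Hnf1aos1 over rAAV8-Scramble) of each of the 8 genes with its 95% interval from edgeR (large circles, filled where called), and below it the values of the 6 fits that each left out 1 library (small symbols). Pdk4 stays between −1.79 and −1.56 in those fits, whereas Fgf21 moves from −1.32 to −0.53 without rAAV8-Scramble replicate 2 and Angptl4 from −1.05 to −1.53 without rAAV8-Hnf1aos1 replicate 3.

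The window before the Pdk4 gene (chr6:5496310-5496528, − strand) held a CCAAT box on the reverse strand, and none of the other letters searched.
Pdk4: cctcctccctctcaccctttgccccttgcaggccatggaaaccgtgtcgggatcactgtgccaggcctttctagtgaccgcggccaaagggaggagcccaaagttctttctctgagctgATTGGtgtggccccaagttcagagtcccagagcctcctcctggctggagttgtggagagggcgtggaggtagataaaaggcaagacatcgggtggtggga

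Skeletal muscle expresses Pdk4 strongly, and muscle transcripts differed between these libraries. The 8 muscle markers summed to 68.4, 235 and 146 TPM in rAAV8-Scramble replicates 1 to 3 and to 80.0, 61.0 and 27.5 TPM in rAAV8-Hnf1aos1 replicates 1 to 3, and of the 8 none was called (edgeR; 2 at an unadjusted p under 0.05). All 8 had a log2 fold change below 0, from −1.63 to −0.47, with a median of −1.32. The marker Acta1, skeletal muscle actin, had a log2 fold change of −1.36 (adjusted p = 0.333, edgeR). The scramble libraries with 146 and 235 TPM lay above every knockdown library, and scramble replicate 1 lay among them. The part of muscle RNA in the difference in Pdk4 was not tested. With scramble replicate 2 left out, the log2 fold change of Pdk4 was −1.56 (adjusted p = 0.00104, edgeR). That fit still held scramble replicate 3, with 146 TPM of muscle markers, so it cannot show what part muscle RNA has.

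The pyruvate dehydrogenase kinases share their substrate, and the other members of the family were not called. On the log2 scale the fold changes were −0.31 for Pdk1 (adjusted p = 0.199), −0.23 for Pdk2 (adjusted p = 0.319) and −0.63 for the weakly counted Pdk3 (adjusted p = 0.274). Within a library the ratio of Pdk4 to Pdk2 counts, which does not depend on the scaling, averaged 0.372 ± 0.0159 in rAAV8-Scramble and 0.137 ± 0.0316 in rAAV8-Hnf1aos1 (SD, n = 3), with 0.109 to 0.171 in the latter. The ratio was lower in all 3 knockdown libraries, with a mean log2 difference of −1.46, and so were the ratios to Pdk1 and Pdk3, with −1.38 and −1.06 (exact two-sided permutation tests, p = 0.1 for each of the 3 ratios and 0.1 after Benjamini-Hochberg adjustment, the smallest that 3 against 3 allow). The share called over all genes tested was 3.23% lower and 3.09% higher. Of the 11 other genes of the complex and its kinases and phosphatases, 1 was called lower and none higher. This was Dlat, the acetyltransferase subunit of the complex, at −0.49 on the log2 scale (adjusted p = 0.0281, edgeR). It kept its call without scramble replicate 1 and without knockdown replicate 3, and lost it when scramble replicate 2 or 3 or knockdown replicate 1 or 2 was left out (−0.47 to −0.41, adjusted p of 0.0574 to 0.133), and with the spike-in scaling (−0.29, adjusted p = 0.111).

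**Figure D3:**
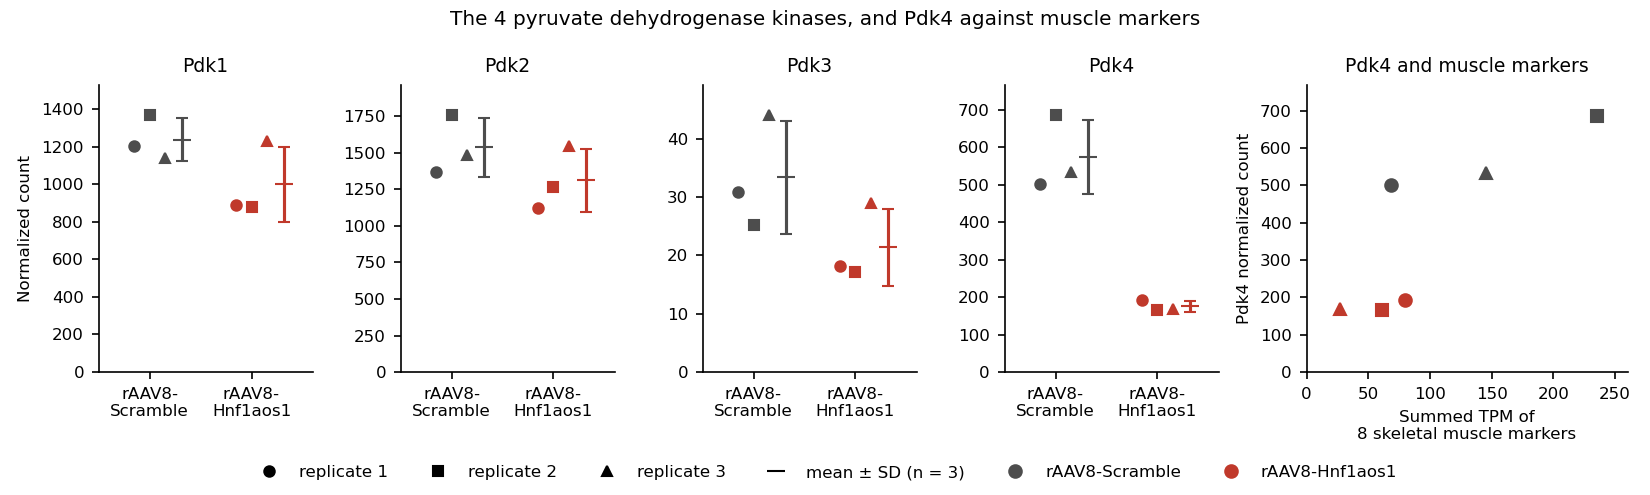
Normalized counts (y axis, from 0) of the 4 pyruvate dehydrogenase kinases in each library with the mean ± SD (n = 3), and at the right the Pdk4 count of each library against the summed TPM of the 8 skeletal muscle markers. The groups are apart in Pdk4 and overlap in Pdk1, Pdk2 and Pdk3. The muscle sums run from 68.4 to 235 TPM in the scramble and from 27.5 to 80.0 TPM in the knockdown libraries, and their part in the difference in Pdk4 was not tested.

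Vnn1 encodes vanin-1, a pantetheinase that frees the building blocks of coenzyme A, and lies on chromosome 10 (23894688 to 23905343, + strand). The normalized counts were 219.6, 679 and 581 in the rAAV8-Scramble and 164, 352 and 257 in the rAAV8-Hnf1aos1 libraries, replicates 1 to 3. Scramble replicate 1 was low and lay among the knockdown libraries. The means were 493 ± 242 and 258 ± 93.8 (SD, n = 3), and the log2 fold change of −0.93 had a 95% interval from −2.34 to 0.47 (adjusted p = 0.372, edgeR). Its near relative Vnn3 had a log2 fold change of −0.08 (adjusted p = 0.656). Over all genes tested, edgeR called 3.23% lower and 3.09% higher. Of the 12 listed genes of vanin relatives and coenzyme A synthesis, it called none lower and 1 higher. This was Nudt7, a peroxisomal enzyme that cleaves coenzyme A, at 0.52 on the log2 scale (edgeR adjusted p = 0.0480). Of the 6 fits that left out 1 library, the one without scramble replicate 2 called Nudt7, and those without scramble replicate 1 or 3 or knockdown replicate 1, 2 or 3 did not (0.41 to 0.62, adjusted p of up to 0.226). The call was also lost with DESeq2's size factors, library totals, a minimum mean of 50 counts and limma's voom (0.45 to 0.52, adjusted p of 0.0514 to 0.0648).

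Bdh1, on chromosome 16 (31422280 to 31458901, + strand), had 2021, 2571 and 2095 normalized counts in the rAAV8-Scramble and 1401, 1775 and 2001 in the rAAV8-Hnf1aos1 libraries, replicates 1 to 3. Knockdown replicate 3 fell just short of the lowest scramble library. The means of 2229 ± 298 and 1726 ± 303 (SD, n = 3) gave a log2 fold change of −0.37 (SE 0.139, 95% interval −0.68 to −0.06) that was not called (adjusted p = 0.141, edgeR). Of the 6 fits that left out 1 library, 1 called it, that without knockdown replicate 3 (−0.49, edgeR adjusted p = 0.0355). The 6 values ran from −0.49 to −0.25. Of 10 other alternatives, 1 called it, the fit that kept genes of low counts (−0.37, edgeR adjusted p = 0.0177). With the spike-in scaling it was −0.17 (edgeR adjusted p = 0.469). Bdh2, a cytosolic dehydrogenase of a related kind, had a log2 fold change of −0.15 (adjusted p = 0.726).

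Acat1, on chromosome 9 (53580522 to 53610382, − strand), encodes the mitochondrial acetoacetyl-CoA thiolase and differed least of the 8. It had 3621, 4146 and 3466 normalized counts in the rAAV8-Scramble and 2789, 3398 and 3985 in the rAAV8-Hnf1aos1 libraries, replicates 1 to 3. Knockdown replicate 3 exceeded 2 of the scramble libraries. The means were 3744 ± 356 and 3391 ± 598 (SD, n = 3), and the log2 fold change was −0.14 with a 95% interval from −0.43 to 0.14 (adjusted p = 0.546, edgeR). Scaled to the spike-in RNAs its sign turned, to 0.06 (adjusted p = 0.810), where the median of all genes moved up by 0.20. The cytosolic thiolases Acat2 and Acat3, whose sequences are so alike that their reads may be confused, had log2 fold changes of 0.14 (adjusted p = 0.616) and 0.15 (adjusted p = 0.339).

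Of the other ketone body enzymes and carriers, 10 of the 11 listed were tested, with 1 called lower and none higher. Among all genes tested 3.23% were called lower and 3.09% higher. The median log2 fold change of the list was −0.03. The called gene was Slc16a7, which encodes MCT2, a carrier of pyruvate, lactate and ketone bodies. It had 1183, 1439 and 1278 normalized counts in rAAV8-Scramble and 584, 723 and 777 in rAAV8-Hnf1aos1 replicates 1 to 3. The groups were well apart, the log2 fold change was −0.90 (SE 0.119, edgeR adjusted p = 0.00294), and the gene was called in 6 of 6 fits that left out 1 library.

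Of all genes tested, 3.23% were called lower and 50.1% had a log2 fold change below 0. The gene lists were chosen with earlier results of these data known, so their shares cannot test an excess over these values. Of the 32 other target genes of PPAR alpha, 5 were called lower and none higher, 29 had a log2 fold change below 0, and the median was −0.23. The number called lower moved with single libraries, to 2 without scramble replicate 2, 1 without scramble replicate 3, 3 without knockdown replicate 1, 2 without knockdown replicate 2 and 9 without knockdown replicate 3, and DESeq2 called 8. Acot2, a mitochondrial acyl-CoA thioesterase, fell from 89.3 ± 24.1 to 28.1 ± 3.84 normalized counts (SD, n = 3), with a log2 fold change of −1.66 (adjusted p = 0.00578, edgeR), and was called in 6 of 6 fits that left out 1 library. Neighbouring Acot genes are alike in sequence, so some of its reads may have been lost or misplaced. Mgll, monoglyceride lipase, fell by 0.56 (adjusted p = 0.0211), and lost its call when scramble replicate 2 (−0.43) or 3 (−0.60) or knockdown replicate 2 (−0.56) was left out, and with the spike-in scaling (−0.36, adjusted p = 0.0760). Of the 12 genes of the fed state and insulin response, 4 were called lower and none higher, with a median of −0.51. Leaving out scramble replicate 3 or knockdown replicate 2 left 0 of these calls, leaving out scramble replicate 2 left 2, and DESeq2 and the fit with no low-count filter each called 7. Srebf1, the gene of the lipogenic factor SREBP-1, fell by 0.56 (adjusted p = 0.0111). It lost its call without scramble replicate 3 (−0.50, adjusted p = 0.0838) or knockdown replicate 2 (−0.50, adjusted p = 0.0577).

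Of all genes tested, 3.23% were called lower and 3.09% higher. The gene lists were chosen with earlier results of these data known, so a difference from these shares is no test of an excess. Over all 10 pathway lists, 15 of the 150 genes tested (10%) were called lower and 3 higher. These counts moved with single libraries, to 8 and 1 without scramble replicate 2, 3 and 0 without scramble replicate 3, 6 and 1 without knockdown replicate 2, and 25 and 7 without knockdown replicate 3. Without scramble replicate 1 or knockdown replicate 1 they were 13 and 1. DESeq2 called 21 lower and 4 higher, and limma's voom 15 and 1.

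**Figure D4:**
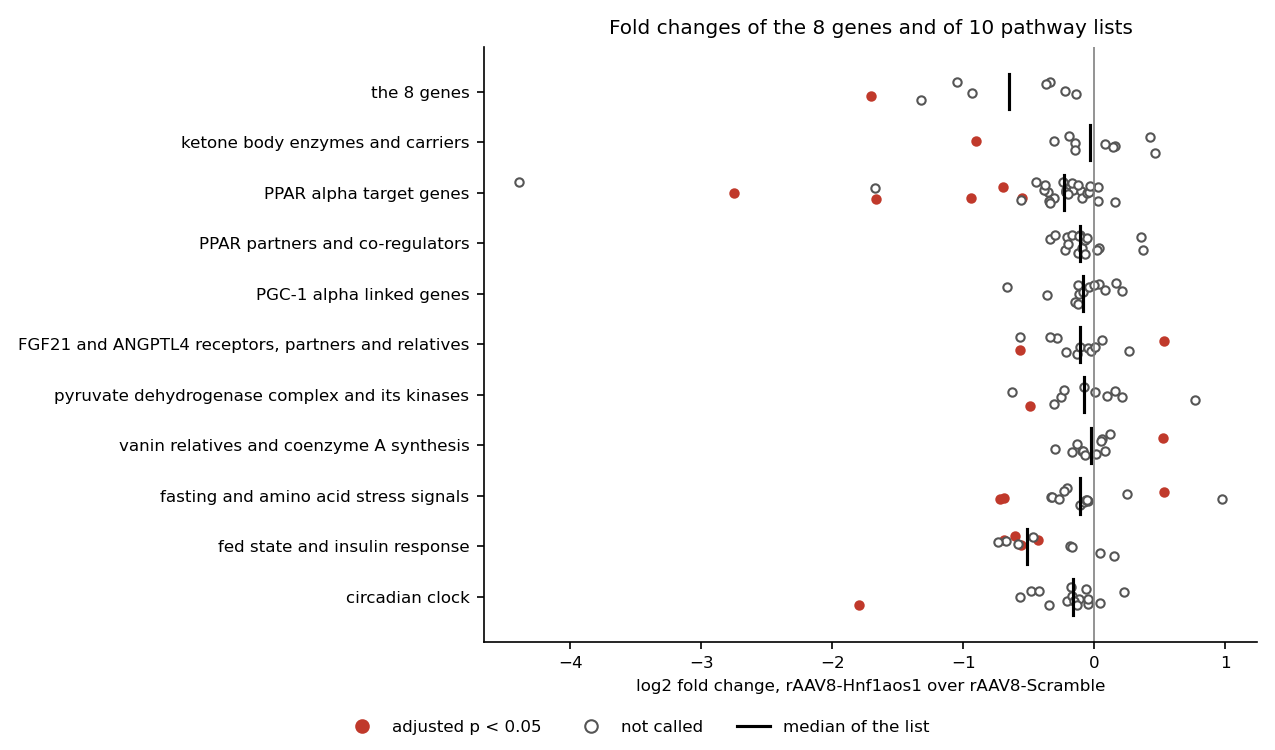
Log2 fold changes (x axis, rAAV8-Hnf1aos1 over rAAV8-Scramble) of the 8 genes and of the tested genes of 10 pathway lists, 1 row per list, with genes called at an adjusted p under 0.05 filled and the median of each row as a bar. The medians of the lists lie between −0.51 (fed state and insulin response) and −0.03, and that of the 8 genes at −0.65.

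The genes whose pattern over the 6 libraries was most like that of each of the 8 were taken as those with the smallest root mean square difference of centered log2 normalized counts, among 11786 genes with a mean of at least 50. For Pdk4 this was Acot4, a peroxisomal acyl-CoA thioesterase, with a difference of 0.14 where Pdk4 itself spread by 0.86, followed by Gm16146 (0.19). Acot4 had 426, 593 and 415 normalized counts in rAAV8-Scramble and 143, 141 and 169 in rAAV8-Hnf1aos1 replicates 1 to 3. For Bdh1 it was Rab43, a small GTPase (0.03), and then Acadl, the long-chain acyl-CoA dehydrogenase (0.04), where Bdh1 spread by 0.26. The nearest to Fgf21 was Slc16a5, a monocarboxylate carrier, at 0.29 where Fgf21 spread by 0.81, and the nearest to Vnn1 was the keratin gene Krt77 at 0.24 where Vnn1 spread by 0.73. For Angptl4 the nearest was Gm39966 (0.15 of a spread of 0.72), for Ppara Dnajc15 (0.02 of 0.17), for Ppargc1a 0610005C13Rik (0.03 of 0.24) and for Acat1 Hexim1 (0.03 of 0.18). With 6 libraries in 2 groups these are descriptions, and no test was made.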

How the data were processed

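The authors trimmed the reads with Trimmomatic, used STAR for alignment and featureCounts to count the reads that mapped uniquely to exons. The deposited raw counts are whole numbers without normalization, and the deposited TPM values cover the same features. The authors' normalized counts and their table of log2 fold changes and p-values were not used. Per the labels the build was GRCm39 and per the study's methods GRCm38; strand setting and annotation were not given in the sources used here. Gene positions are those of GENCODE M21 on GRCm38, matched by symbol. The labels describe depletion of ribosomal RNA and the methods poly(A) selection.

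The 92 ERCC spike-in rows were left out. In R 4.3.3, edgeR 4.0.16 with TMM, filterByExpr and robust quasi-likelihood fits compared the groups, in a model of group alone, with Benjamini-Hochberg adjustment over 16327 genes. DESeq2 1.42.0, limma 3.58.1 (voom, and log2 of TPM plus 0.1 or 1), other scalings and filters, the replicate number as a block and each library left out in turn were alternatives. Replicates are separate mice. The chi-square of the counts of 2 libraries of a group was 7.68 to 31.6 per gene, above the value of about 1 that sampling noise gives. In 3 simulated sets of this comparison, 200 of 16327 genes differed by a log2 value of 1. There edgeR found 64.5% of them, and 9.14% of its calls were false.

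The 8 genes and the gene lists were chosen with earlier results of these data known. Genes named from a list were the called genes with the smallest p, at most 2 in each direction, or else the gene with the smallest p, then relatives of the 8 genes, and genes most like them across the libraries. Acta1 and Lep were named outside this rule, after their values were seen, and some genes of the rule are not reported here. Figures were drawn with matplotlib 3.10.9.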

Additional observations from a re-analysis of the deposited data

How the results depend on the processing

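All 8 genes kept a log2 fold change below 0 under the alternatives run, except Acat1, which was at 0.058 with library sizes from the spike-ins. That scaling moved the median over all genes up by 0.20 on the log2 scale and turned the calls from 505 higher and 527 lower (48.9% higher) to 3030 higher (89.3%), and library totals alone gave 320 higher (30.5%). Without a filter on low counts 870 genes were called higher and 1032 lower, and 3 of the 8 genes, with Bdh1 at −0.37 and Fgf21 at −1.33 added to Pdk4. Fgf21 was not tested with a minimum mean of 50 counts. Leaving out 1 library gave 38 to 1015 genes higher and 65 to 866 lower, both lowest without rAAV8-Scramble replicate 3 and highest without rAAV8-Hnf1aos1 replicate 3, and 1 to 3 of the 8 genes. In those fits Angptl4 ranged from −1.53 to −0.80, Bdh1 from −0.49 to −0.25 and Hnf1aos1 from −1.01 to −0.60. Hnf1aos1 was called with DESeq2 (−0.74), without a filter (−0.74), with voom (−0.77) and with the replicate block (−0.77). Of the genes in the pathway lists, library totals, voom and a minimum mean of 50 counts called 1 higher each, the spike-in scaling 15 and no filter 7, and leaving out 1 library 0 to 7 higher and 3 to 25 lower. Same-numbered libraries deviated from their group means with correlations of −0.02 to 0.02, and not every library correlated best with its own number. Pairing by number was thus not seen, though 3 libraries per group cannot exclude it. With the replicate block, 2 of the 8 genes were called, since Vnn1 passed at −0.87 (adjusted p = 0.0204, edgeR). In that fit Klb (−0.59, adjusted p = 0.0746) and Nudt7 (0.53, adjusted p = 0.103) lost their calls. The cause of these changes was not tested, other than the number of genes or samples that a setting itself alters. With 8 to 44 counts per library, Fgf21 is the gene of the 8 for which depth limits the estimate most.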

Other observations

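The genes of fasting and amino acid stress signals act beside PPAR alpha on several of the genes described. Among 15 tested they gave 2 calls lower and 1 higher, with a median log2 fold change of −0.11. Calls over all genes tested were 3.23% lower and 3.09% higher. Tat, tyrosine aminotransferase, fell from 27539 ± 1097 to 16686 ± 2166 normalized counts (SD, n = 3), by 0.72 on the log2 scale (adjusted p = 0.00766, edgeR), and Klf15, a transcription factor of amino acid use on fasting, fell by 0.69 (adjusted p = 0.0106). Both lost their call without rAAV8-Scramble replicate 3 (−0.74 and −0.70, adjusted p of 0.0523 and 0.0772). Atf4, the main factor of the amino acid stress response, rose by 0.53 on the log2 scale (adjusted p = 0.0419). Of the 6 fits that left out 1 library, those without rAAV8-Hnf1aos1 replicate 2 or 3 called it, and those without rAAV8-Scramble replicate 1, 2 or 3 or rAAV8-Hnf1aos1 replicate 1 did not (0.34 to 0.57, adjusted p of up to 0.210). The call was also lost with library totals, a minimum mean of 50 counts and limma's voom (0.46 to 0.51, adjusted p of 0.0514 to 0.0804).

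Of the 16 clock genes tested, 1 was called lower and none higher, and the median log2 fold change was −0.16. The shares called over all genes tested were 3.23% lower and 3.09% higher. Per1, a repressor of the clock that also responds to glucocorticoids, had 427, 376 and 444 normalized counts in the rAAV8-Scramble and 127, 77.9 and 153 in the rAAV8-Hnf1aos1 libraries, replicates 1 to 3. The groups were far apart, at −1.80 on the log2 scale (SE 0.206, edgeR adjusted p = 0.00294), and Per1 was called in 6 of 6 fits that left out 1 library.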
